A study of Homo sapiens with 6 samples.

Results

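PLCL2 and 7 other genes of the phospholipase C family (PLCL1, PLCB1, PLCB2, PLCB3, PLCG1, PLCG2 and PLCD1) were followed in NB4 cells, an established human acute promyelocytic leukemia line. These 8 genes were taken from 52992 genes summed from transcript tables. PLCL2 was chosen by its estimated counts in these same samples, at or near 0 in the control and present with 1 ARID1A guide, so its own values are given as a description and carry no test. The other 7 were taken as relatives of PLCL2. Every sample expressed Cas9 together with a small guide RNA (sgRNA) under doxycycline control, was sorted for the mCherry and GFP reporters of the 2 vectors, and was kept in 1 µg/ml doxycycline over 7 days. A later culture without doxycycline is described in the study's methods. LacZ cells (genotype WT) expressed an sgRNA against a bacterial gene, while ARID1A sg1 and ARID1A sg5 cells (genotype ARID1A-deficient) expressed sgRNAs against ARID1A, the DNA-binding subunit of SWI/SNF (BAF) remodelers. Each group had 2 samples, 6 in all, and nothing in the labels says whether they came from separate cultures, so p-values measure the spread between these samples only. The cells were sorted populations, and how many alleles were cut in each is not given by RNA levels.

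Phospholipase C enzymes cut the membrane lipid phosphatidylinositol 4,5-bisphosphate (PIP2) into inositol 1,4,5-trisphosphate (IP3), which releases calcium from the endoplasmic reticulum, and diacylglycerol, which recruits protein kinase C and RasGRP proteins. PLCB enzymes act downstream of G protein coupled receptors, PLCG enzymes downstream of tyrosine kinases, and PLCD1 responds to calcium and binds PIP2. PLCL1 and PLCL2 keep the phospholipase C fold but lack catalytic activity. They bind IP3 and phosphatases, and PLCL2 has been studied as a brake on B cell receptor signaling.

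PLCL2 lies on chromosome 3 (chr3:16802651-17090594, plus strand, GRCh38, GENCODE 29), and RefSeq gives it 2 start sites, whose promoter windows (250 bases before to 50 bases after the start, GRCh38.p14) are printed here because the only PLCL2 transcript with appreciable counts in these data is annotated from the downstream one. Capitals mark CG dinucleotides.
upstream start, chr3:16884705-16885004: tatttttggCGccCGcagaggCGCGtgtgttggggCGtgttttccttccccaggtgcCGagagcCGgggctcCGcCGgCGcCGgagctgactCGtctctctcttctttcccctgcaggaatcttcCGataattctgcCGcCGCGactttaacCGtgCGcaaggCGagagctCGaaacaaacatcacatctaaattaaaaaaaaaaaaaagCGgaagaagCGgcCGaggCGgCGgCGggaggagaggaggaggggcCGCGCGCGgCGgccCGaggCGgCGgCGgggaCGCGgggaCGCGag
downstream start, chr3:16932840-16933139: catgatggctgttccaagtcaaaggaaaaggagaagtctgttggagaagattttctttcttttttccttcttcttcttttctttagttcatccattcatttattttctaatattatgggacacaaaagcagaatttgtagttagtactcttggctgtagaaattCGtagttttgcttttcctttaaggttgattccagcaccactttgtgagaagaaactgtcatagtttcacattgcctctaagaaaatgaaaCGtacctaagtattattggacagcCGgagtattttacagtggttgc
The 2 windows differed sharply in base composition. The upstream window held 39 CG dinucleotides and 63.7% G or C, and 91.3% of the 35116 RefSeq windows of the same length held fewer CG dinucleotides. The downstream window held 3 CG dinucleotides and 35.7% G or C, and 18.2% of all windows held fewer. The median window held 14 CG dinucleotides and 58.7% G or C. Neither window contained a GC box (GGGCGG on either strand), present in 45.0% of all windows, or TATAAA on either strand, present in 11.5%. CCAAT on either strand, in 34.6% of all windows, was found in the downstream window only, and CANNTG (an E box, its own reverse complement, 68.7% of all windows) in the upstream window only. These matches describe letters in a window and nothing about binding. Of the other members, PLCL1, PLCB3, PLCG1 and PLCG2 had a window in the RefSeq table, with 29, 37, 47 and 8 CG dinucleotides.

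PLCL2 RNA was essentially missing from LacZ cells and was detected in both sg5 samples. LacZ replicate 1 held 0.034 estimated counts and LacZ replicate 2 held 0. Sg1 replicate 1 held 4.51 and sg1 replicate 2 held 3.06. Sg5 replicate 1 held 83.5 and sg5 replicate 2 held 53.0. The sg5 samples thus stood above the other 4, with no overlap, and between themselves they differed 1.69-fold in CPM, the count scaled by library size. In bulk RNA, a few cells with much PLCL2 RNA and many cells with little cannot be told apart.

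The counting error of such low numbers is wide. A count of 0, as in each LacZ sample after rounding, allows up to 3 counts. The exact Poisson 95% intervals were 1.62 to 11.7 counts for sg1 replicate 1, 0.619 to 8.77 for sg1 replicate 2, 66.1 to 103 for sg5 replicate 1 and 39.7 to 69.3 for sg5 replicate 2. The sg1 intervals began below the 3 counts that LacZ allows. These intervals cover counting error only and describe the counts by which PLCL2 was chosen. Group means were 1.41 CPM ± 0.510 (SD, n = 2) in sg5 and 0.0832 CPM ± 0.0222 (SD, n = 2) in sg1. Set against a floor of 3 counts in each LacZ library (mean 0.0582 CPM), the sg5 mean was 24.2 times the floor. This ratio leaves out the counting error of sg5, so it is not a lower bound. The pooled counts of 136 in sg5 and 8 in sg1 gave a ratio of 16.6 after scaling for depth. Sg5 held 94.7% of the summed group means when the estimated counts were scaled without rounding. In the whole table, 3 genes, all protein-coding, had at most 3 counts in each LacZ sample and at least 50 in each sg5 sample. The cutoff of 50 lies just under the lower sg5 count of PLCL2, which was chosen by these counts. By the same cutoffs, 2 genes, 0 of them protein-coding, were low in sg5 and high in LacZ. Low in sg1 and high in LacZ were 2 protein-coding genes, and 0 genes were low in LacZ and high in sg1. Beside PLCL2, the genes low in LacZ and high in sg5 were DEFA1B and AL132780.3, named after their values were seen. DEFA1B is a near-identical copy of another defensin gene, so its counts are uncertain. DEFA1B and AL132780.3 were at 0 in sg1 replicate 1 but above 100 counts (161 and 136) in sg1 replicate 2, a pattern unlike that of PLCL2.

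**Figure D1:**
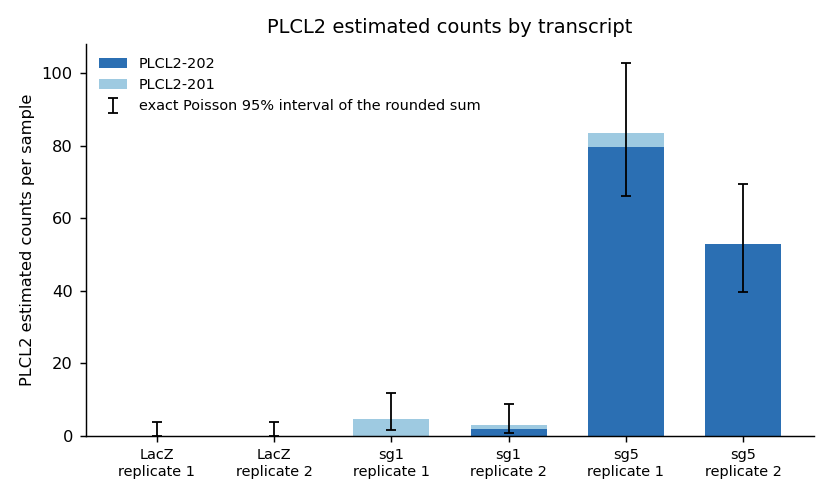
Estimated counts of PLCL2 in each of the 6 samples, stacked by annotated transcript, with the exact Poisson 95% interval of the rounded sum as bars. The 2 sg5 samples reach 83.5 and 53.0 counts, nearly all from PLCL2-202, while LacZ is at or near 0 and sg1 stays under 5.

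The sg5 counts came almost wholly from 1 transcript model. PLCL2-202 (ENST00000432376, chr3:16933090-17090593, protein coding, 6 exons, 3940 bases) held 79.7 counts (95.5% of the gene) in sg5 replicate 1 and 53.0 counts (all of the gene) in sg5 replicate 2. It held 0 in sg1 replicate 1 and 1.90 in sg1 replicate 2. PLCL2-201 (ENST00000419842, chr3:17010494-17081546, 2416 bases), a shorter model with 359 bases not in PLCL2-202, held 4.51 and 1.16 counts in the sg1 samples and 3.78 and 0 in the sg5 samples. PLCL2-203 (ENST00000460467, a noncoding model) was at 0 in all 6 samples. The few sg1 counts thus lay wholly on PLCL2-201 in replicate 1 but mostly on PLCL2-202 (62.1%) in replicate 2, at under 5 counts in each.

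Which of the 2 start sites was used cannot be told from these tables. GENCODE 29 lists a further model, PLCL2-204 (chr3:16884959-17090594), that begins at the CG-rich upstream start and shares 3738 bases with PLCL2-202. It had no row in the tables used here, and PLCL2-202 is distinguished from it by its first exon of 202 bases (chr3:16933090-16933291). Reads from the shared exons could be assigned only to models with a row, whichever start they came from. Genes overlapping PLCL2 added almost nothing, since PLCL2-AS1 held 1 count in sg5 replicate 1 and 0 in the other 5 samples, and MIR3714 was at 0 throughout.

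No tested neighbour of PLCL2 was called. Of the 7 protein-coding genes within 1000000 bases, none of the 5 that were tested was called by edgeR in sg1 or sg5 against LacZ at a false discovery rate (FDR) of 0.1, and none reached an unadjusted p under 0.05. TBC1D5, a Rab GTPase activating protein and the nearest at 66568 bases downstream, had a log2 fold change of -0.01 (SE 0.12, adjusted p = 0.996) in sg1 and 0.05 (SE 0.12, adjusted p = 0.938) in sg5. RFTN1, which encodes the lipid raft protein raftlin, had -0.35 in both contrasts (SE 0.20, adjusted p = 0.993 and 0.706). DAZL, a germ cell RNA-binding protein and the nearest upstream gene, had 1 count in LacZ replicate 2 and 0 elsewhere. GALNT15 was too low to be tested, with 1.13 and 4.05 counts for LacZ, 8.08 and 7.35 for sg1, and 14.2 and 8.52 for sg5. Its groups did not overlap, at counts close to the floor.

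The 5 tested genes whose log2 CPM followed PLCL2 most closely over the 6 samples were ARMC8 (Pearson r 0.992), CCAR1 (0.990), DNAJB9 (0.988), ARID4B (0.982) and IL10RB-DT (0.982). These coefficients were the highest of 18514 genes over 6 points and are descriptions only. The genes shared the order of PLCL2 but not its size. CCAR1 rose in steps from 78.3 and 78.4 CPM in LacZ to 86.9 and 86.2 in sg1 and to 101 in both sg5 samples, a range of 0.36 on the log2 scale, and ARMC8 spanned 0.10. PLCL2 spanned 5.48 on the same scale with a prior count of 2.

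Markers of other cell types were measured beside this result, since PLCL2 has been studied in B cells. Of 7 B cell markers, MS4A1 was at 0 counts in the LacZ pair, at 1 and 0 in the sg1 pair and at 3 and 1 in the sg5 pair. The summed CPM of the list was 30.0 to 32.0 in LacZ and 33.8 to 43.8 in the 4 ARID1A-deficient samples, and sg5 (36.9 and 39.2) lay between the 2 sg1 values (33.8 and 43.8). CD79A, a B cell receptor chain, had the smallest p of that list (log2 fold change 0.93 in sg1 and 0.80 in sg5, adjusted p = 0.410 and 0.418) and was not called. The T and NK cell sum was 82.9 to 88.2 CPM in LacZ and 89.7 to 114 in the deficient samples. Most of it was NKG7 (3648 to 5386 counts over the 6 samples), and CD3E, CD2 and CD8A had at most 4 counts in any sample. The monocyte sum was 10.3 to 15.7 CPM in LacZ and 4.63 to 10.97 in the deficient samples. HBA1, HBA2 and HBB of 5 erythroid markers, PF4 and GP9 of 3 platelet markers and FCGR3A of 4 monocyte markers were at 0 in every sample. The fibroblast and epithelium sum was 16.1 to 18.3 and 14.9 to 17.5 CPM. Promyelocyte markers summed to 15669 to 17709 CPM in LacZ and 14024 to 16312 in the deficient samples, nearly all of it MPO, while ELANE, a further granule gene, had only 1 to 9 counts. CTSG, which encodes the granule protease cathepsin G, had 4893 and 4574 counts in LacZ and 2880 to 3239 in the deficient samples (log2 fold change -0.50 in sg1 and -0.54 in sg5, adjusted p = 0.686 and 0.426). AZU1, which encodes the granule protein azurocidin, had log2 fold changes of -0.28 and -0.43 (adjusted p = 0.993 and 0.418). The part of the shifts in the B cell sum, in the T and NK cell sum and in the granule genes in the PLCL2 result was not tested.

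Total estimated counts were 46131178 to 54843745 per sample, and 18514 genes passed the filter on low counts and were tested, all 8 members among them (PLCL2 through its sg5 samples). On the first principal component of log2 CPM (34.4% of variance), sg1 replicate 1 and sg5 replicate 2 stood apart from the other 4, so results were also computed without them. Sg5 replicate 2, which stood apart, held 53.0 PLCL2 counts, and sg5 replicate 1 held 83.5. Whether what sets these libraries apart bears on PLCL2 was not tested. ARID1A RNA was 155 and 191 CPM for LacZ, 211 and 191 for sg1, and 124 and 145 for sg5 (log2 fold change 0.22, SE 0.14 in sg1, and -0.36, SE 0.14 in sg5, adjusted p = 0.993 and 0.661). Since indels need not lower RNA, these levels do not check the labels.

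The 8 genes spanned a wide range of levels. Compared per length, as TPM (transcript abundance scaled by effective length) summed over protein-coding transcripts, the order was PLCG2 (93.7 ± 12.2, SD, n = 6), PLCB2 (18.3 ± 2.11), PLCG1 (14.0 ± 1.49), PLCB3 (12.3 ± 1.72), PLCB1 (6.51 ± 1.05), PLCD1 (1.32 ± 0.147), PLCL1 (0.206 ± 0.0633) and PLCL2 (0.169 ± 0.248). The ranges of PLCB2 and PLCG1, of PLCG1 and PLCB3, and of PLCL1 and PLCL2 overlapped, and the other neighbours in this order were separate. In sg5 PLCL2 (0.604 and 0.333 TPM) stood above PLCL1 (0.288 and 0.106 protein-coding TPM) in each sample, and in LacZ and sg1 it stood below. With all transcripts summed, protein-coding or not, PLCL2 made up at most 0.213% of the TPM of 15 phospholipase C genes, and PLCG2, the isoform typical of B cells, platelets and myeloid cells, made up 43.4% to 50.5%.

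**Figure D2:**
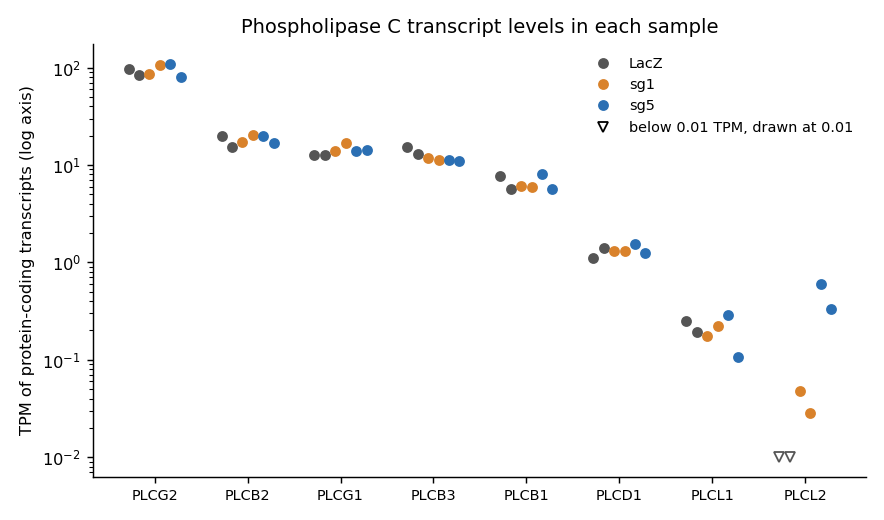
TPM summed over the protein-coding transcripts of each gene, on a log axis, for the 6 samples coloured by group. PLCG2 lies between 80.7 and 110 TPM in every sample, and PLCL2 is the only gene whose samples separate widely by group, from below 0.01 in LacZ to 0.604 in sg5.

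Summing all transcripts instead of the protein-coding ones raised some genes far more than others. All transcripts of PLCG1 summed to 36.0 to 57.5 TPM, of which protein-coding transcripts held 27.97% to 35.1%, and for PLCB2 this share was 28.2% to 33.1%. For PLCB1 it was 97.4% to 99.4%. Much of the rest lay in short models with retained introns, such as PLCG1-204 (936 bases, 4.82 TPM in LacZ replicate 1), where each count adds more TPM than in a long model. In counts, retained-intron models held 44.3% to 52.8% of PLCB2, 14.1% to 17.4% of PLCG1 and 3.30% to 4.83% of PLCG2. A single such model, PLCB2-207 (4643 bases), held 31.5% to 40.0% of the PLCB2 counts, more in each sample than PLCB2-202 (13.6% to 26.8%), the protein-coding model with the highest median share. Conversely PLCG2-201, PLCB3-201 and PLCG1-201 held 86.3% to 88.6%, 89.6% to 94.5% and 77.3% to 81.5% of their genes' counts. The retained-intron share of PLCB2 was 44.8% and 52.8% in LacZ and 44.3% to 48.0% in the deficient samples, so the groups overlapped, and no test was made of it. Whether these counts came from unspliced RNA was not tested.

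The other 7 members were compared across the 3 groups to ask whether the family moved with PLCL2. None was called by edgeR's quasi-likelihood test at FDR 0.1 in any of the 4 contrasts. In sg1 against LacZ, 0 of 7 were called beside 0.0378% of all genes tested, and 1 of 7 had an unadjusted p under 0.05 beside 4.15%. In sg5 against LacZ the counts were 0 of 7 beside 0.0972% and 1 of 7 beside 7.47%. In sg1 against sg5 they were 0 of 7 beside 0.00540% and 0 of 7 beside 1.38%. With both guides joined against LacZ they were 0 of 7 beside 0.167% and 2 of 7 beside 7.21%. DESeq2 also called 0 of 7 in each contrast and gave the same counts of unadjusted p under 0.05 (1, 1, 0 and 2). Groups did not overlap for 2 of 7 in sg1 (34.2% of all genes), 2 of 7 in sg5 (42.2%), 1 of 7 between the guides (21.8%) and 2 of 7 with the guides joined (20.1%). With so few features called anywhere, a count of 0 among 7 is near the background.

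**Figure D3:**
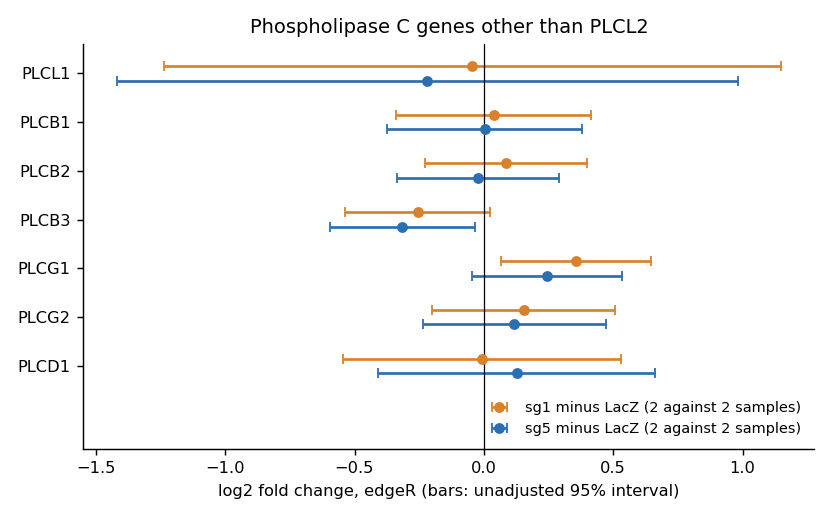
Log2 fold changes of the 7 members other than PLCL2 in sg1 and sg5 against LacZ, with unadjusted 95% intervals from edgeR. The intervals are widest for PLCL1 and exclude 0 for PLCG1 in sg1 and PLCB3 in sg5, though neither passed the adjustment over all genes.

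PLCL1, the other catalytically inactive member (chr2:197804702-198572581), did not share the pattern of PLCL2. Its estimated counts were 57.3 and 52.0 for LacZ, 48.0 and 49.0 for sg1, and 68.0 and 19.0 for sg5. The LacZ and sg1 samples were close to each other, and the 2 sg5 samples were the highest and the lowest of all 6. The log2 fold change was -0.04 in sg1 (95% interval -1.24 to 1.15) and -0.22 in sg5 (-1.42 to 0.98), and the sg5 interval reached past a 2-fold decrease. Its sg5 value turned to 0.45 without sg5 replicate 2 and to -1.47 without sg5 replicate 1. That low sample also differed in its transcripts, with 4.07 counts on PLCL1-201 and 10.7 on the shorter PLCL1-205, against 28.3 to 45.2 and 0 to 6.21 in the other 5 samples.

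The 3 PLCB genes encode the enzymes that Gq proteins and G protein beta-gamma subunits activate. PLCB1 (chr20:8077251-8968360) was 11.4 and 11.3 CPM for LacZ, 12.4 and 10.9 for sg1, and 12.3 and 10.5 for sg5. The 2 LacZ values lay inside both other groups, and the log2 fold change was 0.04 in sg1 (95% interval -0.34 to 0.41) and 0.00 in sg5 (-0.37 to 0.38). PLCB2 (chr15:40278176-40307935), the isoform typical of blood cells, was 107 and 103 CPM for LacZ, 98.3 and 124 for sg1, and 109 and 97.5 for sg5. Its groups overlapped, with log2 fold changes of 0.08 (-0.23 to 0.40) and -0.02 (-0.34 to 0.29). ANKRD63, which overlaps PLCB2 on the same strand, had 69.0 to 128 counts.

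PLCB3 (chr11:64251523-64269150) was the lowest-ranked member by fold change. It was 49.7 and 42.7 CPM for LacZ, 39.9 and 37.5 for sg1, and 36.9 and 37.4 for sg5. All 4 ARID1A-deficient samples lay below both LacZ samples, and the 2 LacZ samples differed from each other by more than the 4 others did. The log2 fold change was -0.26 in sg1 (SE 0.12, edgeR adjusted p = 0.993), -0.32 in sg5 (SE 0.12, edgeR adjusted p = 0.661) and -0.29 with the guides joined (SE 0.11, edgeR adjusted p = 0.607). Without LacZ replicate 1 the joined value shrank to -0.17, and without LacZ replicate 2 it grew to -0.39. Protein-coding TPM, 15.5 and 13.0 in LacZ against 10.97 to 11.7 in the other 4, did not overlap either, but TPM over all transcripts did (13.9 in LacZ replicate 2, 15.3 in sg1 replicate 1). With a transcript length offset the log2 fold change of PLCB3 shrank to -0.061 in sg1, -0.24 in sg5 and -0.15 joined.

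The PLCG genes encode the enzymes that receptor and SRC-family or SYK-family tyrosine kinases phosphorylate. PLCG1 (chr20:41136960-41196801) had the largest positive fold change of the 7. It was 62.5 and 62.1 CPM for LacZ, 72.5 and 86.9 for sg1, and 69.5 and 78.2 for sg5. All 4 deficient samples lay above both LacZ samples, which were nearly equal, and sg1 and sg5 overlapped (log2 fold change 0.11, SE 0.13, edgeR adjusted p = 1). The log2 fold change was 0.36 in sg1 (SE 0.13, edgeR adjusted p = 0.993), 0.24 in sg5 (SE 0.13, edgeR adjusted p = 0.696) and 0.30 with the guides joined (SE 0.11, edgeR adjusted p = 0.616). Without sg1 replicate 2 the sg1 value was 0.23, and without sg5 replicate 2 the sg5 value was 0.15. Protein-coding PLCG1 TPM was 12.6 in both LacZ samples and 14.0 to 16.7 in the other 4. ZHX3 overlaps PLCG1 on the opposite strand, and the library kit as named does not mark strand. ZHX3 had 1680 to 1940 counts.

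PLCG1 was called in no fit planned at the start, and its fold changes shifted without the libraries that stood apart. Leaving out sg1 replicate 1 and sg5 replicate 2 together was an alternative chosen after seeing the data. PLCG1 then had a log2 fold change of 0.48 in sg1, 0.16 in sg5 and 0.32 joined, and PLCB3 had -0.31 joined. PLCG2 had 0.28 in sg1 and 0.29 in sg5, against 0.15 and 0.12 with all samples. That fit estimated the spread from the 2 LacZ samples alone and assumed that the lone sg1 and sg5 samples vary as they do. It called 423 genes in sg1 and 807 joined, against 7 and 31 with all samples.

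PLCG2 (chr16:81739097-81962693), the most abundant member, was 296 and 270 CPM for LacZ, 287 and 343 for sg1, and 346 and 268 for sg5. Its groups overlapped, with log2 fold changes of 0.15 (95% interval -0.20 to 0.51) in sg1 and 0.12 (-0.24 to 0.47) in sg5. The sg5 samples were the highest and the lowest of the 6, and the value turned to -0.06 without sg5 replicate 1 and was 0.28 without sg5 replicate 2. The sg1 value was 0.029 without sg1 replicate 2 and 0.27 without sg1 replicate 1. PLCD1 (chr3:38007496-38029762) lies on the same chromosome as PLCL2 and was 3.64 and 3.61 CPM for LacZ, 3.64 and 3.58 for sg1, and 4.56 and 3.36 for sg5. The 4 LacZ and sg1 values were within 0.1 CPM of each other, and the log2 fold changes were -0.01 (-0.54 to 0.53) and 0.13 (-0.41 to 0.66).

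**Figure D4:**
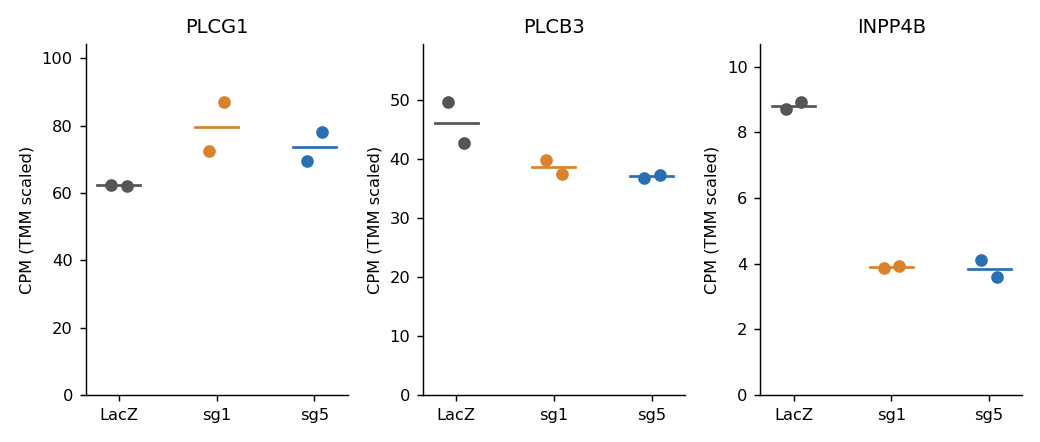
CPM (TMM scaled) of PLCG1, PLCB3 and INPP4B, with 1 point for each sample and a line at the mean of the 2 samples of a group. The 4 ARID1A-deficient samples lie above LacZ for PLCG1 and below it for PLCB3 and INPP4B, and LacZ INPP4B (8.71 and 8.91 CPM) is over 2 times the other 4 values.

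The surrounding pathway was described by 8 lists of genes that supply, activate or follow phospholipase C, 109 genes in all, of which 101 were tested. By edgeR at FDR 0.1, 0 of 101 were called in sg1 and 0 of 101 in sg5, while 5 and 7 had an unadjusted p under 0.05 (4.95% and 6.93%, beside 4.15% and 7.47% of all genes). DESeq2 called 1 in sg1 (INPP4B) and 3 in sg5 (INPP4B, DGKE and FGR), beside 116 and 201 of all 18514 genes tested. The median log2 fold change of the 101 was 0.03 in sg1 and -0.01 in sg5, beside 0.00 and -0.01 over all genes tested. With the guides joined, edgeR called 1 of the 101 genes, INPP4B, beside 0.167% of all genes. DESeq2 called INPP4B, DGKE and FGR, beside 264 of all 18514 genes tested. Without the low-count filter edgeR called 2 list genes in sg1 (C5AR1 and INPP4B). In sg5 it called 6, those 2 with DGKE, FGR, NFATC4 and PI4KA, and joined it called 8, the same 6 with CALM3 and STIM2. Over all 32983 genes tested without that filter it called 345, 632 and 701. The counts for single lists below are those of the main edgeR fit and of DESeq2.

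INPP4B, a phosphatase that removes the 4-phosphate from phosphatidylinositol 3,4-bisphosphate, was the clearest change among these genes. It was 8.71 and 8.91 CPM for LacZ, 3.86 and 3.94 for sg1, and 4.11 and 3.58 for sg5. The replicates agreed closely within each group and both guides lay far below LacZ. It fell by 1.19 on the log2 scale with the guides joined (SE 0.16, edgeR adjusted p = 0.0607). The values were -1.18 in sg1 (SE 0.20, adjusted p = 0.242) and -1.20 in sg5 (SE 0.20, adjusted p = 0.170), neither called by edgeR in the main fit. Both were called by DESeq2 and by edgeR without the low-count filter (edgeR adjusted p = 0.00146 in sg1 and 0.000725 in sg5). The joined call was lost without LacZ replicate 1 (adjusted p = 0.550), without LacZ replicate 2 (0.507) and with a transcript length offset (0.284), where the log2 fold change was -1.20, -1.17 and -1.08. In sg1 it was called without sg5 replicate 1 (adjusted p = 0.0884) or sg5 replicate 2 (0.0931).

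The remaining inositol phosphate enzymes included ITPKB, which phosphorylates IP3 and is known in lymphocyte signaling, at 34.8 and 37.3 CPM in LacZ against 44.0 to 47.0 in the other 4 samples (log2 fold change 0.35 in sg1 and 0.34 in sg5, adjusted p = 0.892 and 0.604). Of the 15 genes of that list, 1 was called in the joined contrast. INPPL1, the lipid phosphatase SHIP2 and the most abundant of the list at 293 TPM, differed by -0.02 and -0.10, and IPMK, an inositol phosphate kinase, by 0.16 and 0.29.

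Upstream of phospholipase C, 0 of 17 tested activators were called by edgeR in sg1, sg5 or the joined contrast, and DESeq2 called FGR in sg5 and joined. C5AR1, the complement C5a receptor, was named after its values were seen. Without the low-count filter edgeR called C5AR1 in sg1, sg5 and joined, and FGR in sg5 and joined. Without sg5 replicate 1 edgeR called C5AR1 in sg5 and joined, and FGR joined. FGR, a SRC-family kinase of myeloid cells, was 7.59 and 7.20 CPM for LacZ, 3.70 and 4.48 for sg1, and 4.60 and 2.91 for sg5. All 4 deficient samples lay below LacZ (log2 fold change -0.86 and -0.98, adjusted p = 0.827 and 0.450). GNAQ, the Gq alpha subunit that activates PLCB enzymes, differed by 0.25 and 0.33 (adjusted p = 0.993 and 0.634). The adaptor LAT2 was the most abundant of the list (384 TPM) and differed by -0.03 and -0.05.

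Downstream of IP3, 0 of 11 tested calcium channel and pump genes were called by edgeR or DESeq2 in those 3 contrasts. STIM2, a calcium sensor of the endoplasmic reticulum, was 49.97 and 38.9 CPM in LacZ against 54.8 to 61.6 in the other 4 samples (log2 fold change 0.41 and 0.39, adjusted p = 0.956 and 0.636). ORAI2, a plasma membrane calcium channel, was 91.8 and 91.0 CPM in LacZ against 70.1 to 85.3 (-0.21 and -0.34, adjusted p = 0.993 and 0.622). The plasma membrane pump ATP2B4 differed by 0.27 and 0.26, and ATP2A2, the endoplasmic reticulum pump and most abundant of the list (179 TPM), by 0.25 and 0.35. Among 12 calcineurin and NFAT genes 0 were called by either tool in those 3 contrasts, and CALM2, CALM3, NFATC2 and NFATC4 differed by 0.16, 0.38, 0.31 and -0.40 in sg1 and by 0.32, 0.41, 0.16 and -0.46 in sg5.

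Downstream of diacylglycerol, 0 of 20 tested genes were called by edgeR in those 3 contrasts, and DESeq2 called DGKE in sg5 and joined. DGKE, a kinase that turns diacylglycerol into phosphatidic acid, was 43.7 and 44.0 CPM for LacZ, 59.3 and 57.2 for sg1, and 61.2 and 61.7 for sg5. The replicates were close and the groups did not overlap, with log2 fold changes of 0.41 (SE 0.11, adjusted p = 0.646) and 0.49 (SE 0.11, adjusted p = 0.333). PRKCB, a protein kinase C, differed by 0.23 and 0.25, UNC13D, a granule release factor, by -0.07 and -0.22, and RASGRP2, the most abundant of the list (270 TPM), by -0.02 and -0.09.

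For the supply of PIP2, 0 of 12 tested genes were called by either tool in those 3 contrasts. PIP5K1B, a kinase that makes PIP2, differed by -0.70 and -0.19, PI4KA, which makes its precursor, by -0.36 and -0.86 with LacZ samples at 35.0 and 73.4 CPM, and PITPNB, a phosphatidylinositol transfer protein and the most abundant of the list (63.9 TPM), by 0.10 and 0.21. Among 6 tested further family genes of 10 listed, 0 were called. PLCD3 differed by 0.08 and -0.67, PLCH1 by -0.09 and -0.51 and PLCXD1, the most abundant of these (56.8 TPM), by -0.17 and -0.26. PLCB4 and PLCZ1 were at 0 in every sample. The 8 known partners of PLC-related inactive proteins, which include protein phosphatase 1 and GABARAP proteins, ranged from -0.19 to 0.15 in sg1 and from -0.14 to 0.20 in sg5, with 0 called. Their named genes were PPP1CA (0.12 and 0.10), PPP1CC (0.09 and 0.12), GABARAP (0.03 and 0.15) and GABARAPL2 (0.15 and 0.20).

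**Figure D5:**
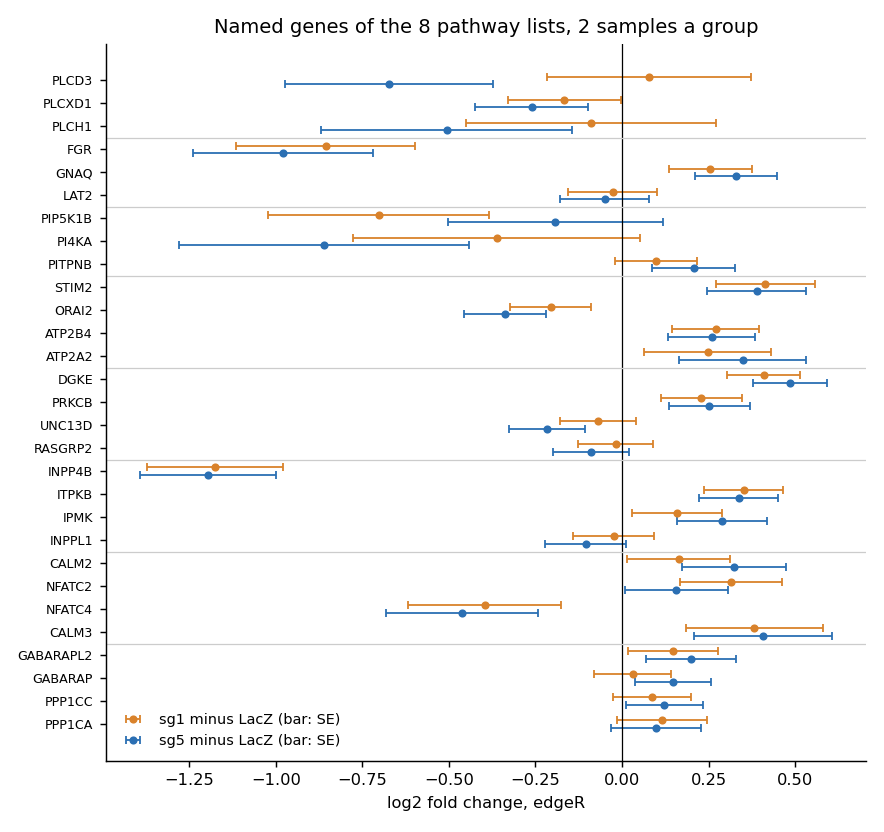
Log2 fold changes of the named genes of the 8 pathway lists in sg1 and sg5 against LacZ, with bars for the SE and grey lines between lists. INPP4B (-1.18 and -1.20) and FGR (-0.86 and -0.98) lie farthest below 0 in both guides, and DGKE (0.41 and 0.49) lies above it in both.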

How the data were processed

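Libraries were made from NB4 RNA with a TruSeq RNA kit. The authors deposited estimated counts and TPM for each of 196354 transcripts, and the columns are those of kallisto. The submitters' processing notes name kallisto, DESeq2 and hg19 without a role, and the human transcript set is not given in the sources used here. Identifiers of 181857 transcripts (92.6%, 95.4% to 95.5% of counts) matched GENCODE release 29 (GRCh38), and all coordinates come from that match. Estimated counts were summed per gene and rounded. The members and lists were chosen with earlier results of these data known. Genes were tested with edgeR 4.0.16 (R 4.3.3): TMM, filterByExpr with a minimum count of 10, a robust quasi-likelihood fit of all 6 samples on group, Benjamini-Hochberg adjustment and FDR 0.1. DESeq2 1.42.0, other filters and scalings, a transcript length offset and leaving out each replicate were alternatives. CPM used TMM-scaled library sizes. The steps were tested on simulated data.

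Named were all 8 members. From each list, genes called in sg1 or sg5 were named (at most 5, otherwise the 3 with the smallest p), with the one of highest mean TPM. A gene named by this rule is not reported here. Also named were the 5 genes most correlated with PLCL2 and the protein-coding genes within 1000000 bases of it. Promoter windows came from RefSeq (GRCh38.p14).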

Additional observations from a re-analysis of the deposited data

How the results depend on the processing

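With every alternative set out at the start (DESeq2, DESeq2 size factors, other filters, a transcript length offset, the replicate block, only the groups compared, no robust estimation, FDR 0.05 and each replicate left out), 0 members were called in each contrast fitted. PLCL1 was below the minimum of a mean of 50 counts, which left 6 members there, and the joined contrast was not fitted with only the groups compared. With both libraries that stand apart left out, the calls among the members changed, in a fit whose spread rests on the LacZ pair. Only log2 fold changes of the members are given for that fit. The log2 fold change of PLCG1 was then 0.48 in sg1, 0.16 in sg5 and 0.32 joined, and that of PLCB3 was -0.31 joined. Of 409 values of the members' log2 fold changes under alternatives, over the 4 contrasts, 41 changed sign, none with an adjusted p below 0.722. In sg1 those outside the left-out replicates were PLCB1 (-0.11 with a length offset, -0.063 without both libraries), PLCD1 (0.12 with a length offset) and PLCL1 (0.061 without both libraries). In sg5 they were PLCL1 (0.45 without both libraries), PLCB1 (-0.0054 with a mean of at least 50 counts) and PLCB2 (0.081 with a length offset, 0.056 without both libraries). Leaving out each replicate moved PLCL1 between -0.15 and 0.055, PLCB1 between -0.070 and 0.14, PLCB2 between -0.086 and 0.24 and PLCD1 between -0.026 and 0.014 in sg1. In sg5 it moved PLCL1 between -1.47 and 0.45, PLCB1 between -0.095 and 0.11, PLCB2 between -0.090 and 0.049, PLCG2 between -0.059 and 0.28 and PLCD1 between -0.092 and 0.32. The cause was not tested. Samples with the same replicate number did not deviate together (correlations 0.07, 0.01 and -0.21). With 2 samples a group, these correlations cannot show whether equal numbers mark a shared experiment. The main fit used no replicate block. With the replicate block 0 members were called, PLCB1 in sg5 was -0.0008, and the calls over all genes fell from 7 to 1 in sg1, from 18 to 1 in sg5 and from 31 to 3 joined. The joined INPP4B call was lost under the block (adjusted p = 0.287), with a log2 fold change of -1.19 in both fits. Over all genes DESeq2 called 116 in sg1, 201 in sg5, 5 between the guides and 264 joined, and without a low-count filter edgeR called 345, 632, 86 and 701. The share of PLCL2 held by sg5 was 92.4% in TPM, 94.7% with protein-coding transcripts only and 93.0% to 95.7% with each replicate left out. PLCL2 was chosen by these same counts, so the shares are a description and carry no test. The protein-coding share could not differ from the main one, since the noncoding model of PLCL2 held no counts in any sample. Depth limits PLCL2 and PLCL1 most, since both had under 100 counts per sample.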
